A study of Bos taurus with 40 samples.

Results

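The genes described here encode slow and fast isoforms of proteins that switch contraction of striated muscle on and off: the troponin subunits TNNT1, TNNT3, TNNC1, TNNC2, TNNI1 and TNNI2, the myosin light chains MYL2 and MYL3, and the calcium pumps ATP2A1 and ATP2A2. They were chosen by name. Of these 10 genes, 9 had a row in the count tables, which list 13570 genes. TNNI1, the slow skeletal troponin I, had no row and is not analysed here. The 5 slow genes are TNNT1, TNNC1, ATP2A2, MYL2 and MYL3, and the 4 fast genes are TNNT3, TNNC2, TNNI2 and ATP2A1. All 9 had at least 1 read in at least 1 library and were therefore among the 13148 genes tested.

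RNA was sequenced from the longissimus dorsi muscle, pituitary gland, liver and abdominal fat of 10 Korean cattle, 5 cows and 5 bulls slaughtered when older than 22 months. Each animal gave 1 library per tissue, so that every tissue had 5 female and 5 male libraries, 40 in all. The labels name no treatment and no genotype besides sex. Between 5173092 and 19165864 reads per library were counted on genes (median 10005607). Levels are given as CPM, counts per 1000000 reads on genes, scaled with TMM factors over the 40 libraries. These values are not corrected for gene length, so levels were compared between samples and not between genes.

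Each tissue carried the markers of its labelled kind. The summed CPM of 8 skeletal fibre markers was 124792 to 209052 in the muscle libraries, that of 5 hepatocyte markers 113338 to 283524 in liver, that of 4 adipocyte markers 5448 to 23391 in fat and that of 5 hormone genes 81584 to 284474 in pituitary. One library went against its label. The liver library labelled bull 3 had 0 reads on DDX3Y, USP9Y and ZFY, genes of the Y chromosome, and 1401 CPM of XIST, the RNA of the inactive X chromosome, where the other 4 bull livers had at most 0.936 CPM. Among replicate pairs compared by chi-square per gene, where 1 is sampling noise, the closest pair within a group stood at 23.2. The liver library labelled bull 3 stood at 15.0 from the liver of cow 4, closer than any pair within a group. The liver of cow 4 had 1450 CPM of XIST. Whether these 2 libraries come from the same animal was not tested, and both were kept under their labels in the main tests. The muscle, fat and pituitary libraries of bull 3 did hold reads of DDX3Y. The fat library of bull 5 was low in Y-linked reads, with 23 on USP9Y and 3 on ZFY. The other bull fats had at least 311 and 96. Its XIST level was 1.39 CPM. By the same chi-square it stood at 266 to 348 from the other bull fats, which stood at 39.8 to 80.3 from each other. In these bulk samples, fewer fibres of a type and less RNA per fibre cannot be told apart.

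Striated muscle contracts when calcium binds troponin C, which moves troponin I and troponin T on the thin filament and lets myosin reach actin. SERCA pumps then return the calcium to the sarcoplasmic reticulum and the fibre relaxes. Slow oxidative and fast glycolytic fibres build these parts from different genes, and the slow versions of several of them, TNNC1, MYL2, MYL3 and ATP2A2, also serve the heart. ATP2A2 has a further splice form that is used as a housekeeping calcium pump in most cell types.

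The first question was whether the members differed between cows and bulls in muscle. MYL2 and TNNC1, the slow regulatory light chain and the slow troponin C, were higher in bulls, by 1.86 and 1.81 on the log2 scale. The other 3 slow genes also had higher means in bulls, and all 4 fast genes had lower means in bulls, but none of these 7 passed the test. In the likelihood ratio test of edgeR with Benjamini-Hochberg adjustment over all genes (threshold 0.05), 2 of the 9 members were called, both higher in bulls. Of all genes tested, 0.517% were called in muscle and 0.137% were called higher in bulls. The quasi-likelihood test of edgeR called 0 of the 9 members, 5 of which had an unadjusted p under 0.05, and it called 0.0532% of all genes. DESeq2 called the same number of members as the likelihood ratio test, 2. On TMM-scaled CPM, no member had all 5 bulls above or all 5 bulls below the 5 cows in muscle, which 0.73% and 0.92% of all genes had. That overlap depends on the scaling. Cow 4 had the lowest TMM factor of the muscle libraries, 0.518. Without TMM factors, MYL2 was at most 3722 CPM in cows and at least 3776 CPM in bulls. TNNC1 was at most 3134 CPM in cows and at least 3545 CPM in bulls, and TNNI2 at least 660 and at most 628 CPM. The other members still overlapped. The share of all genes so separated without the factors was not computed.

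**Figure D1:**
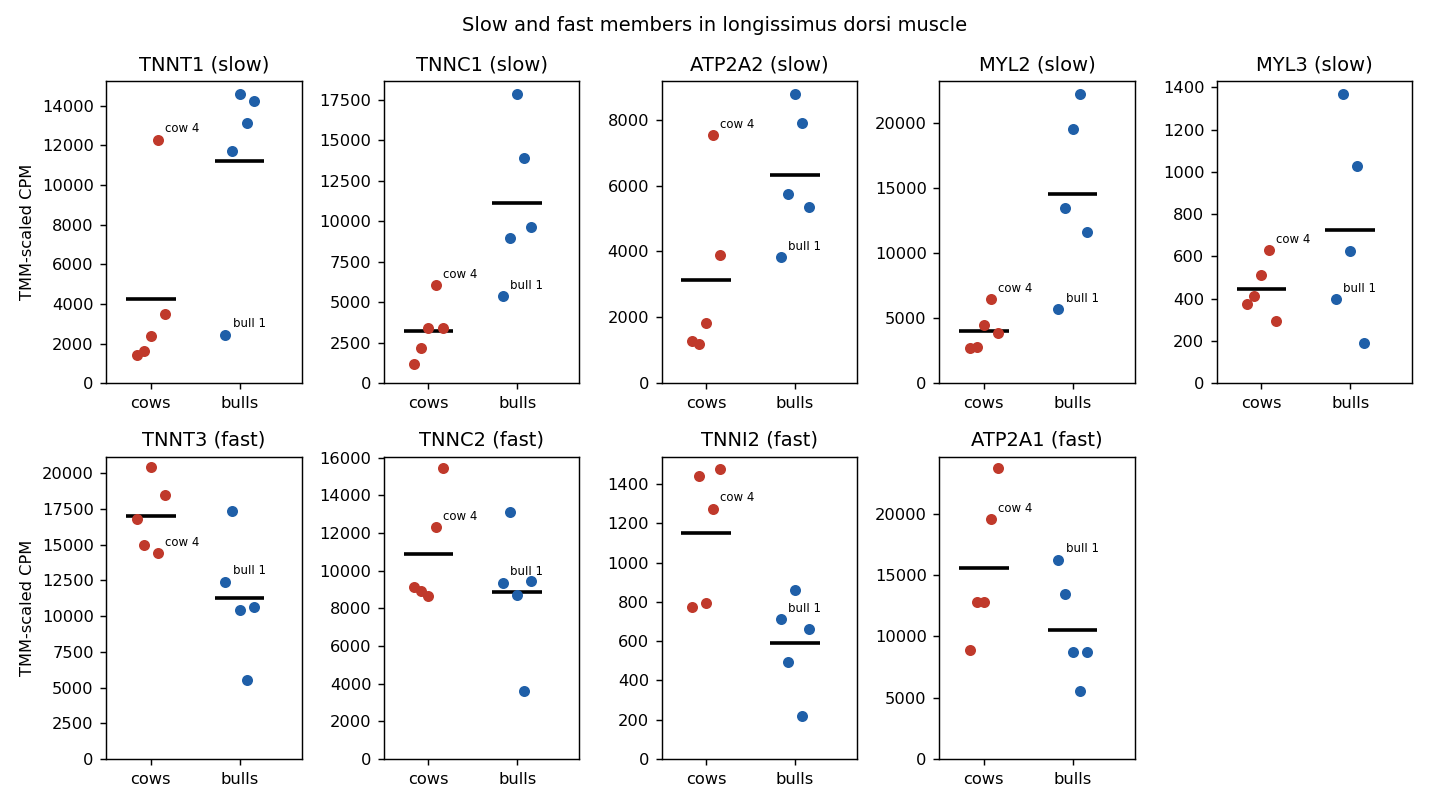
TMM-scaled CPM (linear axis) of the 5 slow and 4 fast members in the 10 muscle libraries; each point is 1 animal, and the horizontal line is the mean of 5. Cow 4 and bull 1 are named: for TNNT1, cow 4 (12286 CPM) lies among the high bulls and bull 1 (2450 CPM) among the low cows.

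Among the troponin T genes, slow TNNT1 was read in the muscle of cows 1 to 5 at 1414, 1647, 2401, 12286 and 3508 CPM. In bulls 1 to 5 it stood at 2450, 11707, 14583, 13127 and 14221 CPM. Cow 4 thus lay with the 4 high bulls, and bull 1 with the 4 low cows. Without TMM factors, cow 4 stood at 6365 CPM, below the 4 high bulls, of which bull 2 was lowest at 7558 CPM. The log2 fold change, male to female, was 1.43 with a standard error (SE) of 0.581 and did not pass (adjusted p = 0.297). Without cow 4 it was 2.35 and passed in the same edgeR test (adjusted p = 0.000142). Fast TNNT3 stood at 16772, 14969, 20418, 14423 and 18468 CPM in the cows. In the bulls it was 12425, 17380, 10410, 5514 and 10661 CPM. Only bull 2 reached the range of the cows, and the log2 fold change of -0.60 (SE 0.330) did not pass (adjusted p = 0.518). TNNT3 was among the sexually dimorphic genes that the study drew for its qRT-PCR. In cattle, that qRT-PCR found TNNT3 significant between the sexes in liver, in pituitary and in the test over the tissues. It was not significant there in muscle or fat.

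Slow troponin C, TNNC1, binds calcium in slow and cardiac fibres. In cows 1 to 5 it stood at 1206, 2149, 3412, 6049 and 3420 CPM, and in bulls 1 to 5 at 5378, 8970, 17832, 13939 and 9638 CPM. On the TMM scale, the groups overlapped only where bull 1 lay below cow 4. TNNC1 was higher in bulls by 1.81 on the log2 scale (SE 0.433, edgeR adjusted p = 0.0224). The call was lost without cow 1, 2 or 3 or without bull 3 or 4, with an edgeR adjusted p of up to 0.116 and a log2 fold change of at least 1.55. In the study's own qRT-PCR of cattle tissues, TNNC1 was not significant between the sexes in muscle or in the test over the tissues. It was significant there in pituitary. The study's own model of sex and tissue on the RNA-seq counts also called TNNC1. Fast troponin C, TNNC2, had 9142, 8905, 8671, 12308 and 15465 CPM in the cows and 9373, 13116, 8708, 3632 and 9453 CPM in the bulls. The sexes were interleaved except for bull 4, the lowest of the 10 (log2 fold change -0.29, SE 0.349, adjusted p = 0.838). Fast troponin I, TNNI2, which inhibits the actomyosin interaction at rest, had the largest log2 fold change in size of the 4 fast members. Its levels were 774, 1442, 794, 1275 and 1477 CPM in the cows and 713, 494, 860, 220 and 661 CPM in the bulls. On the TMM scale, bull 3 was the only bull above the lowest cow. The log2 fold change of -0.94 (SE 0.365) did not pass (edgeR adjusted p = 0.261).

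The light chains stabilise the neck of the myosin head. MYL2, the slow regulatory light chain, stood at 2701, 2752, 4476, 6475 and 3847 CPM in cows 1 to 5. In bulls 1 to 5 it was 5729, 13521, 19592, 22277 and 11625 CPM. On the TMM scale, again only bull 1 fell below cow 4, and the other 4 bulls were above every cow. MYL2 was higher in bulls by 1.86 on the log2 scale (SE 0.396, edgeR adjusted p = 0.00345) and remained called when any 1 of the 10 libraries was left out, with log2 fold changes between 1.65 and 2.10. MYL3, the slow essential light chain, stood at 374, 414, 513, 631 and 293 CPM in the cows and at 399, 1370, 627, 1030 and 189 CPM in the bulls. The bulls held both the highest and the lowest value (log2 fold change 0.69, SE 0.440, adjusted p = 0.601).

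Of the calcium pumps, slow ATP2A2 (SERCA2) was read at 1294, 1180, 1840, 7526 and 3904 CPM in the cows and at 3827, 5744, 8795, 7886 and 5350 CPM in the bulls. Cow 4 lay above 3 of the bulls, and cow 5 above bull 1. The log2 fold change was 1.04 (SE 0.480, adjusted p = 0.382), and without cow 4 it was 1.66 and passed (edgeR adjusted p = 0.00322). Fast ATP2A1 (SERCA1) ran from 8896 CPM in cow 1 through 12847, 12797 and 19578 in cows 2 to 4 to 23758 CPM in cow 5. In bulls 1 to 5 it was 16272, 13444, 8766, 5561 and 8712 CPM. The sexes overlapped widely (log2 fold change -0.55, SE 0.364, adjusted p = 0.622). Without cow 4, 4 members were called in muscle, TNNT1, TNNC1, ATP2A2 and MYL2, and 553 of all genes, against 68 with cow 4.

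The summed markers of muscle fibres overlapped between the sexes. The 8 skeletal fibre markers summed to 124792 to 206681 CPM in the muscle of cows and to 146571 to 209052 CPM in that of bulls. Adipocyte markers in muscle summed to 26.4 to 663 CPM in cows and 68.9 to 240 CPM in bulls, and 5 smooth muscle markers to 598 to 1175 and 595 to 1123 CPM. Of 6 cardiac markers 4 had a row, and they summed to 3.55 to 9.79 CPM in cows and 2.61 to 17.3 CPM in bulls. NPPA and NPPB, cardiac hormone genes, were at 0 in all muscle libraries. TNNT2, the cardiac troponin T, had a mean of 6.03 CPM in cows and 4.79 CPM in bulls. TNNI3, the cardiac troponin I, had 0.620 and 2.60 CPM (log2 fold change 2.11, SE 0.676, edgeR adjusted p = 0.123). The part of other cell types in the member values was not tested.

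A ratio of the slow to the fast gene within 1 library does not depend on how the libraries are scaled. Bulls had higher slow to fast ratios for troponin T, troponin C, the SERCA pumps and the regulatory light chain. For TNNC1/TNNC2 the sexes did not overlap, with read ratios of 0.132 to 0.491 in cows and 0.574 to 3.84 in bulls. The mean difference was 2.23 on the log2 scale (SE 0.610), a 4.71-fold higher ratio in bulls. The exact two-sided permutation test gave p = 0.00794, the smallest p that 5 against 5 can give. This p follows from the absence of overlap and adds nothing to it. The share of other gene pairs without overlap was not computed. The TNNT1/TNNT3 ratio was 0.0843 to 0.852 in cows and 0.197 to 2.38 in bulls (5.07-fold, log2 difference 2.34, SE 0.860, exact permutation p = 0.0317). Here the sexes overlapped only through cow 4 (0.852), which lay above bull 1 (0.197) and bull 2 (0.674). The ATP2A2/ATP2A1 ratio was 0.0919 to 0.384 in cows and 0.235 to 1.42 in bulls (3.73-fold, log2 difference 1.90, SE 0.567, exact permutation p = 0.0159).

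The light chains were set against their fast partners MYLPF, the fast regulatory chain, and MYL1, the fast essential chain, which are no members. MYL2/MYLPF was 0.378 to 1.25 in cows and 0.672 to 4.97 in bulls (3.60-fold, log2 difference 1.85, SE 0.575, exact permutation p = 0.0159). MYL3/MYL1 was 0.0307 to 0.124 in cows and 0.0263 to 0.129 in bulls, so that the ranges nearly coincided (log2 difference 0.37, SE 0.603, exact permutation p = 0.563). These 5 ratios share libraries, and their p-values are unadjusted. The p of TNNT1/TNNT3 rose to 0.0635 in the exact permutation test without cow 1, 2 or 3 or without bull 3, 4 or 5, with log2 differences from 1.99 upwards. A TNNI1/TNNI2 ratio could not be formed.

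**Figure D2:**
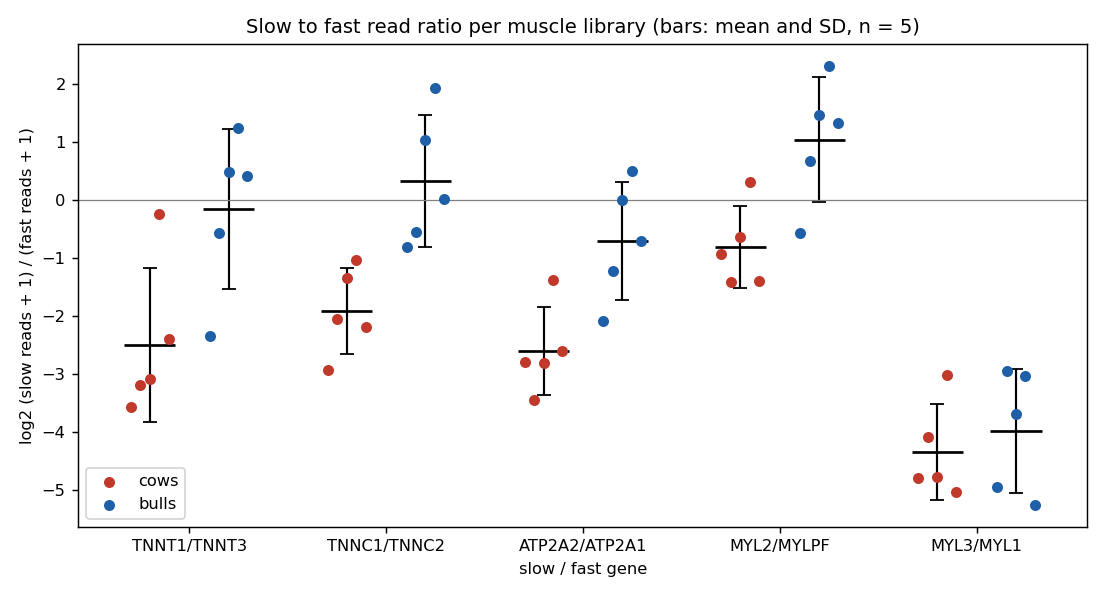
Log2 ratio of slow to fast reads (1 read added to each) in the 10 muscle libraries for 5 gene pairs; points are animals, and bars give the mean and SD of 5. TNNC1/TNNC2 is the pair in which every bull lies above every cow, and MYL3/MYL1 the pair with the smallest difference between the means (0.37).

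Over the 9 members, reads took 3.88% to 4.94% of all gene reads in the muscle of cows and 3.73% to 6.59% in that of bulls. The slow members alone took 0.638% to 1.71% in cows and 1.17% to 4.56% in bulls. The fast members took 2.46% to 3.94% and 1.17% to 2.87%. The sexes overlapped in the slow share only through cow 4 (1.71%) and bull 1 (1.17%).

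The slow members also varied together from animal to animal. Across the 10 muscle libraries, Pearson's r of log2(CPM + 1) was positive for all 10 slow pairs (0.369 to 0.962, median 0.877), and it was positive for each of them in cows alone and in bulls alone. TNNC1 and MYL2 were the closest pair, with r = 0.962 (permutation p = 4.0e-05) and Spearman's rho = 0.964 (permutation p = 7.0e-05). Without the 2 libraries farthest from the median of TNNC1, r was 0.981, and within the sexes it was 0.931 in cows and 0.942 in bulls. MYL3 stood apart, with r between 0.369 and 0.497 to the other slow members. All 36 pairs were computed in these 10 libraries, and no p was adjusted over them.

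The 6 fast pairs had r between 0.685 and 0.832. These values depended on a few libraries: without the 2 libraries farthest from the median of the first gene of the pair, r was -0.22 to 0.541. Within the sexes, 6 of the 6 pairs had a positive r in bulls and 3 in cows, where TNNT3 and TNNI2 had the lowest (-0.48). For TNNC2 and TNNI2, r of 0.739 (permutation p = 0.0277) and rho of 0.236 (permutation p = 0.512) turned to an r of -0.22 without the 2 libraries farthest from the median of TNNC2. Between slow and fast members, all 20 pairs had a negative r, from -0.71 to -0.10. Within the sexes this differed: in bulls none of the 20 slow-fast pairs had a positive r, and in cows 12 of 20 did, ATP2A1 with ATP2A2 among them (0.818 in cows, -0.77 in bulls). Each within-sex r rests on 5 libraries. In the muscle of cow 4, which had the lowest TMM factor (0.518), the scaling raised ATP2A1 from 10142 to 19578 CPM and ATP2A2 from 3898 to 7526 CPM. The part of this library in the r of cows was not tested. Whether the sexes differ in these correlations was not tested either. With levels not scaled by TMM factors, 24 of the 36 pairs had a permutation p under 0.05, against 15 with them.

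Among 7177 genes with a mean of at least 10 CPM in muscle, the genes most like each member over the 10 libraries were ranked by the same r. TNNT1 was most like MYH7, the slow myosin heavy chain (0.968), TPM3, the slow tropomyosin (0.959), and ADCK3 (0.951). TNNC1 was most like TPM3 (0.971), MYL2 and LDHB (0.954), and MYL2 was most like TNNC1, TPM3 (0.947) and MYBPC1, the slow myosin binding protein C (0.937). ATP2A2 was most like PDLIM1 (0.964), MRPS27 (0.961) and MYH7 (0.958). On the fast side, TNNC2 and ATP2A1 shared ACTN3, the alpha-actinin of fast fibres, as their first (0.952 and 0.940). TNNC2 was followed by AK1 and APOE, and ATP2A1 by ACACB and STIM1. TNNT3 (ZNF238, RAB3IP, JSP.1), TNNI2 (SHKBP1, PRR5, CTDSP2) and MYL3 (TIMM9, HSPB3, TMA7) had lists with no contractile protein gene, led by 0.889, 0.922 and 0.838.

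Other genes of the slow and fast programmes were described from lists of textbook genes. Of 14 further slow genes 12 were tested; 0 were called between the sexes in muscle, 6 had an unadjusted p under 0.05, and all 12 had a positive log2 fold change (median 0.98, against -0.04 over all genes tested). Of 13 further fast genes 11 were tested, and 1, MYH1, the heavy chain of fast type IIX fibres, was called. MYH1 fell in bulls by 5.20 on the log2 scale (SE 0.402, edgeR adjusted p = 8.27e-24), from 10310 to 32268 CPM in cows to 369 to 1216 CPM in bulls. The median of the fast list was -0.25, and 4 of its 11 genes had a positive log2 fold change. No gene was called among 4 cardiac paralogs, 5 other light chain and SERCA family genes, 5 calcium handling genes and 8 fibre type regulators tested, of which 1, 2, 0 and 4 had an unadjusted p under 0.05.

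The second question was where the members were expressed. All 9 were higher in muscle than in each of the other 3 tissues, and the differences were far beyond the spread between animals. In edgeR's quasi-likelihood test with sex as a covariate, 9 of 9 members were called higher in muscle than in liver, fat and pituitary, where 34%, 26.8% and 31.5% of all genes were called higher in muscle. The smallest difference was that of ATP2A2 against liver, 4.11 on the log2 scale (SE 0.314, adjusted p = 1.18e-13), and the adjusted p of every other member was below this value.

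**Figure D3:**
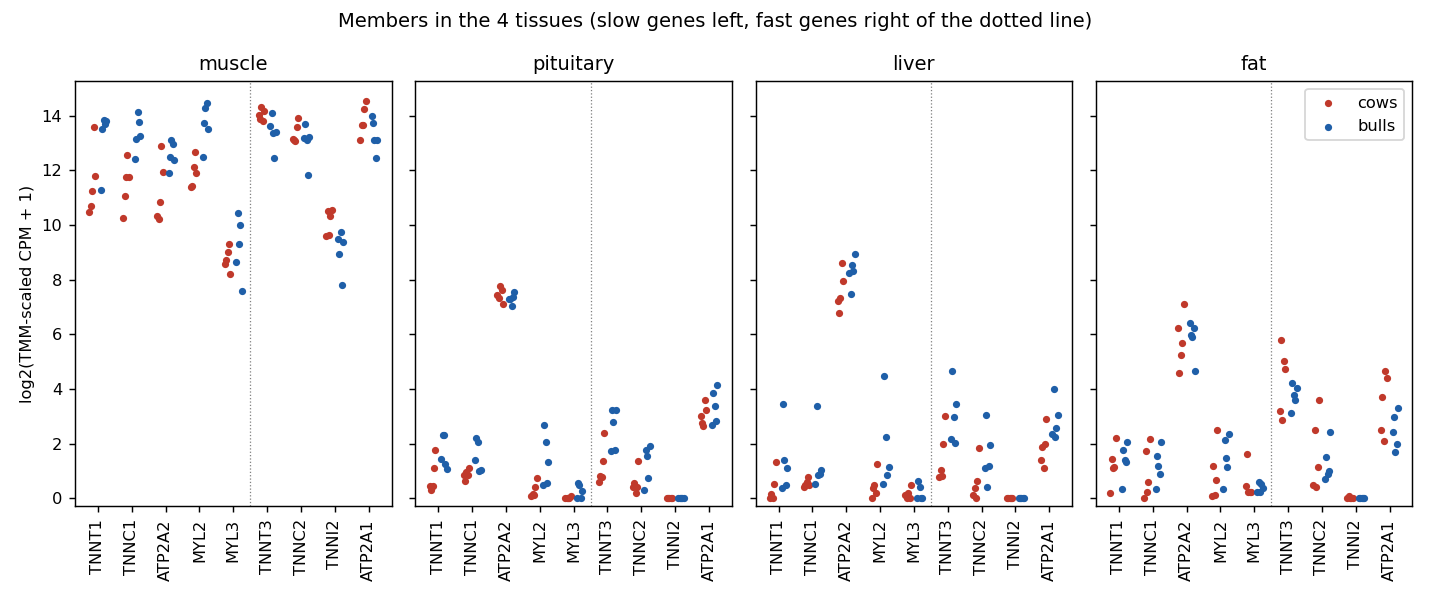
Log2(TMM-scaled CPM + 1) of the 9 members in every library of muscle, pituitary, liver and fat; points are animals, coloured by sex. ATP2A2 has medians of 273 CPM in liver, 162 in pituitary and 60.7 in fat, against 4627 in muscle, and TNNI2 lies at 0 outside muscle but for 1 read in 1 fat library.

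ATP2A2, the slow pump with a housekeeping form, was read in every tissue. Its CPM ranged from 108.2 to 488 in liver (median 273), from 129 to 217 in pituitary (median 162) and from 23.2 to 136 in fat (median 60.7), against 1180 to 8795 in muscle (median 4627). Its order below muscle was liver, pituitary and fat. Fat was lower than liver (log2 difference -2.07, SE 0.315, adjusted p = 5.79e-07) and lower than pituitary (pituitary minus fat 1.43, SE 0.315, adjusted p = 0.000157), while liver and pituitary did not differ beyond their spread (log2 difference -0.64, SE 0.314, edgeR adjusted p = 0.0738), a pair that passed without cow 2 (adjusted p = 0.0311) or cow 3 (0.0415). ATP2A1, the fast pump, ranged from 1.15 to 14.9 CPM in liver, 5.29 to 16.8 in pituitary and 2.20 to 24.1 in fat. None of these 3 neighbours was called; pituitary over liver (log2 difference 0.84, SE 0.403, adjusted p = 0.0684) was called with the animal as a replicate block (adjusted p = 0.0147) and without bull 2 (adjusted p = 0.0217).

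Fast TNNT3 stood higher in fat than in liver and pituitary. It ranged in fat from 6.31 to 54.7 CPM (median 14.1), with 77 to 841 reads per library. In liver it was 0.727 to 24.2 CPM (median 3.24) and in pituitary 0.505 to 8.35 CPM (median 2.36). Fat was above liver (log2 difference 1.90, SE 0.500, adjusted p = 0.00212) and above pituitary (pituitary minus fat -2.64, SE 0.499, adjusted p = 4.84e-05 in edgeR). Liver and pituitary were not separated (adjusted p = 0.206). The 2 fat libraries highest in TNNT3 were those of cows 2 and 4.

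TNNT1, TNNC1, TNNC2 and MYL2 had mean levels of 1.08 to 2.93 CPM in the other tissues, and MYL3 of 0.110 to 0.453 CPM. Most of their neighbours outside muscle were not called. The exceptions were MYL3, higher in fat than in liver (log2 difference 1.92, SE 0.833, edgeR adjusted p = 0.0207) and pituitary (pituitary minus fat -2.04, SE 0.707, adjusted p = 0.00504), and TNNC2, lower in pituitary than in fat (-1.38, SE 0.596, adjusted p = 0.0462). Cow 2 alone held 32 of the 68 MYL3 reads in fat, and without cow 2 neither MYL3 difference passed (adjusted p = 0.217 against liver and 0.0944 against pituitary). The TNNC2 difference did not pass with RLE factors, without any 1 cow or without bull 5 (edgeR adjusted p = 0.0507 to 0.144). In all, 0 of 9 members were called between pituitary and liver, 4 between pituitary and fat and 3 between fat and liver, where 64.5%, 64.6% and 64.3% of all genes were called. Without cow 2, the number between pituitary and fat was 2, and without bull 2 the number between fat and liver was 5, with TNNT1 and ATP2A1 added. The likelihood ratio test called 1 member between pituitary and liver, ATP2A1.

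TNNI2 was not detected in liver or pituitary, with 0 reads in all 20 libraries, and had 1 read in fat, in cow 2. Against the floor of 3 reads per library, its mean muscle level of 871 CPM was at least 2334-fold higher than in liver and at least 4414-fold higher than in pituitary. These floors cover counting error only. MYL3, with a mean of 584 CPM in muscle, had 10 reads in liver, 68 in fat and 18 in pituitary. TNNT3 and TNNI2 are close neighbours, with 2 protein-coding genes between them in the RefSeq annotation of another cattle assembly, ARS-UCD2.0. TNNT3 had 442 reads in liver, 2821 in fat and 565 in pituitary, so the pair was not read alike outside muscle.

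Set against the muscle level of the same animal, the members fell into different ranges outside muscle, given here as ppm (parts per 1000000). The median over 10 animals was 70.8 ppm in liver, 162 in fat and 209 in pituitary for TNNT1, and 95.7, 89.2 and 59.4 ppm for MYL2. TNNC1 (118, 79.1 and 261 ppm) and TNNC2 (83.8, 119 and 77.3 ppm) lay in a similar range, MYL3 stood at 108, 431 and 0 ppm, and TNNI2 had medians of 0 in the 3 tissues. Skeletal actin, ACTA1, stood at 97.4, 123 and 90.5 ppm, and muscle creatine kinase, CKM, at 104, 94.7 and 96.9 ppm. Higher values, in the same order of tissues, were those of ATP2A2 (70791, 15252 and 34895 ppm), TNNT3 (327, 1302 and 209 ppm) and ATP2A1 (263, 522 and 682 ppm). Markers of the other tissues were also read outside their own. The 5 hormone genes summed to 14.8 to 385 CPM in liver, 20.5 to 226 in fat and 19.6 to 202 in muscle. The 5 hepatocyte markers summed to 46.9 to 473 CPM in fat, 13.8 to 144 in muscle and 40.1 to 190 in pituitary. The share of muscle fibre RNA, or of RNA of another tissue, in the levels outside muscle was not tested.

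**Figure D4:**
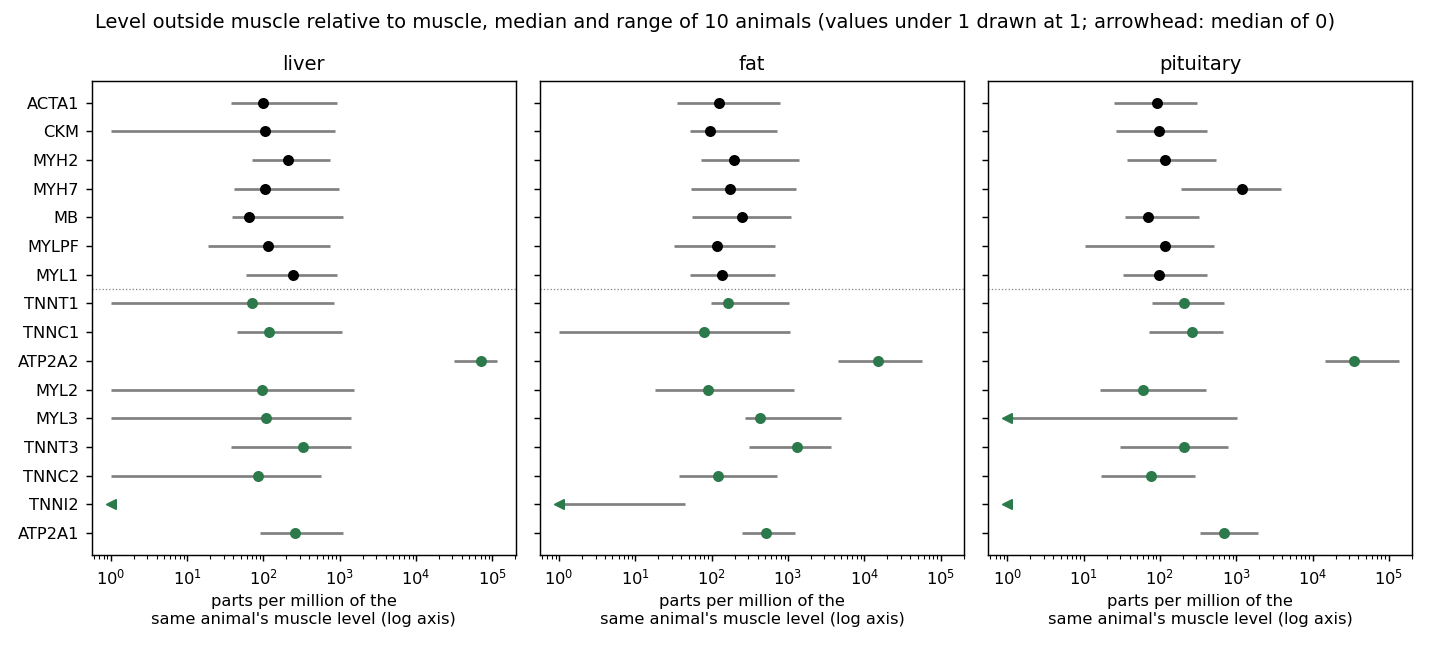
Level in liver, fat and pituitary as ppm of the same animal's muscle level (log axis; values under 1 drawn at 1), as the median and range of 10 animals, for 7 other muscle genes above and the 9 members below the dotted line. ATP2A2 stands at medians of 15252 to 70791 ppm, and TNNI2 has a median of 0 in all 3 tissues.

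The third question was whether the sexes differed outside muscle. In pituitary, MYL2 was called higher in bulls, and it was the only member called, where 0.745% of all genes were called and 0.555% were called higher in bulls. It rested on few reads: 1, 2, 1, 4 and 10 in cows 1 to 5 and 5, 107, 42, 11 and 23 in bulls 1 to 5. These gave 0.250 ± 0.263 CPM (SD, n = 5) in cows and 2.20 ± 2.11 CPM in bulls, a log2 fold change of 3.11 (SE 0.788, edgeR adjusted p = 0.0277). Bulls 1 and 4 lay below cow 5, so the sexes overlapped. The call was lost with the quasi-likelihood test (adjusted p = 0.242), which called 0 members and 0.0913% of all genes and left 6 of the 9 with an unadjusted p under 0.05, and it was lost without cow 1, 2 or 3 or bull 2 or 3. Without cow 5, TNNT1, TNNT3, TNNC2 and MYL2 were called, and the share of all genes called in that fit is not given here.

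Some other muscle genes were also higher in bulls in pituitary. The 8 skeletal fibre markers summed to 17.9 to 42.8 CPM in cows and 29.4 to 174 CPM in bulls, and all 8 were detected in each sex. The highest sum was that of bull 5, where ACTA1 was 17.6 and CKM 5.41 CPM. The other bulls reached at most 83.5 CPM. Of 5 calcium handling genes tested in pituitary, 2 had a positive log2 fold change. MYH7 and MYH2 were also called higher in bulls, MYH7 by 1.18 (SE 0.279, edgeR adjusted p = 0.00837) and MYH2 by 2.34 on the log2 scale (SE 0.543, adjusted p = 0.0101). MYH7 had all 5 bulls above all 5 cows, as 0.852% of all genes had in pituitary. ACTA1 had 3.82 ± 3.67 CPM in cows and 14.4 ± 8.28 CPM in bulls (SD, n = 5, edgeR adjusted p = 0.0628). Markers of other cells moved as well. The 5 smooth muscle markers summed to 36.2 to 216 CPM in cows (median 84.4) and 68.8 to 611 CPM in bulls (median 244), and ACTA2, MYH11 and MYL9, whose proteins serve smooth muscle contraction, had log2 fold changes of 1.57, 1.47 and 1.04 (edgeR adjusted p = 0.213, 0.457 and 0.158). The 5 hormone genes summed to 81584 to 265293 CPM in cows and 143559 to 284474 CPM in bulls, and CGA, the shared alpha subunit of the glycoprotein hormones, was called higher in bulls (mean 2446 and 8741 CPM, log2 fold change 1.84, SE 0.437, adjusted p = 0.0125). The part of muscle fibre RNA and of these other cells in the MYL2 difference was not tested. TNNT3 was 0.505 to 4.24 CPM in cows and 2.34 to 8.35 CPM in bulls, and its log2 fold change of 1.80 (SE 0.567) did not pass (adjusted p = 0.130).

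In liver, 0 of 9 members were called by the likelihood ratio test of edgeR, by its quasi-likelihood test or by DESeq2, where the first called 0.175% and the second 0.00761% of all genes; 6 members had an unadjusted p under 0.05 in the first and 5 in the second. Means were higher in bulls for 8 of the 9, all but the undetected TNNI2. The liver of bull 2 held the highest level of TNNT1 (9.84 CPM), TNNC1 (9.49), MYL2 (20.9) and TNNT3 (24.2), and it also had the highest skeletal marker sum of any liver, 183 CPM, against 16.8 to 61.0 in the other 9. MYL2 in liver was 0, 0.306, 0.384, 0.140 and 1.37 CPM in the cows and 0.429, 20.9, 3.71, 0.780 and 1.23 CPM in the bulls (log2 fold change 3.63, SE 0.997, adjusted p = 0.144). The library labelled bull 3 held the second highest of these. Without cow 5, MYL2, TNNT3 and TNNC2 were called, and the share of all genes called in that fit is not given here. Without the library labelled bull 3, which had no reads of the Y-linked genes, 0 members and 61 of all genes (0.464%) were called, against 23 with it. The log2 fold change of MYL2 was then 3.75 (edgeR adjusted p = 0.110) and that of TNNC1 2.66 (adjusted p = 0.158), the other members had an adjusted p of at least 0.323, and MYL3 changed sign, from 0.30 to -0.16. ATP2A2 in liver was 147, 108.2, 159, 388 and 246 CPM in the cows and 301, 178, 370, 316 and 488 CPM in the bulls. The sexes overlapped (log2 fold change 0.66, SE 0.377, adjusted p = 0.786).

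In fat, 0 of 9 members were called by the likelihood ratio test, by the quasi-likelihood test or by DESeq2, and 1 had an unadjusted p under 0.05 in each edgeR test. The first test called 0.114% of all genes and the second 0.0228%. That member was ATP2A1, with 12.8 ± 9.21 CPM in cows and 4.99 ± 2.72 CPM in bulls (SD, n = 5, log2 fold change -1.38, SE 0.589, edgeR adjusted p = 0.616). TNNT3 in fat was 8.24, 54.7, 6.31, 31.3 and 25.5 CPM in cows 1 to 5 and 7.78, 17.8, 12.7, 11.1 and 15.5 CPM in bulls 1 to 5. Cows thus held the 3 highest values and the lowest (log2 fold change -0.97, SE 0.539, edgeR adjusted p = 0.745). With any 1 fat library left out, that of bull 5 low in Y-linked reads included, 0 members were called.

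**Figure D5:**
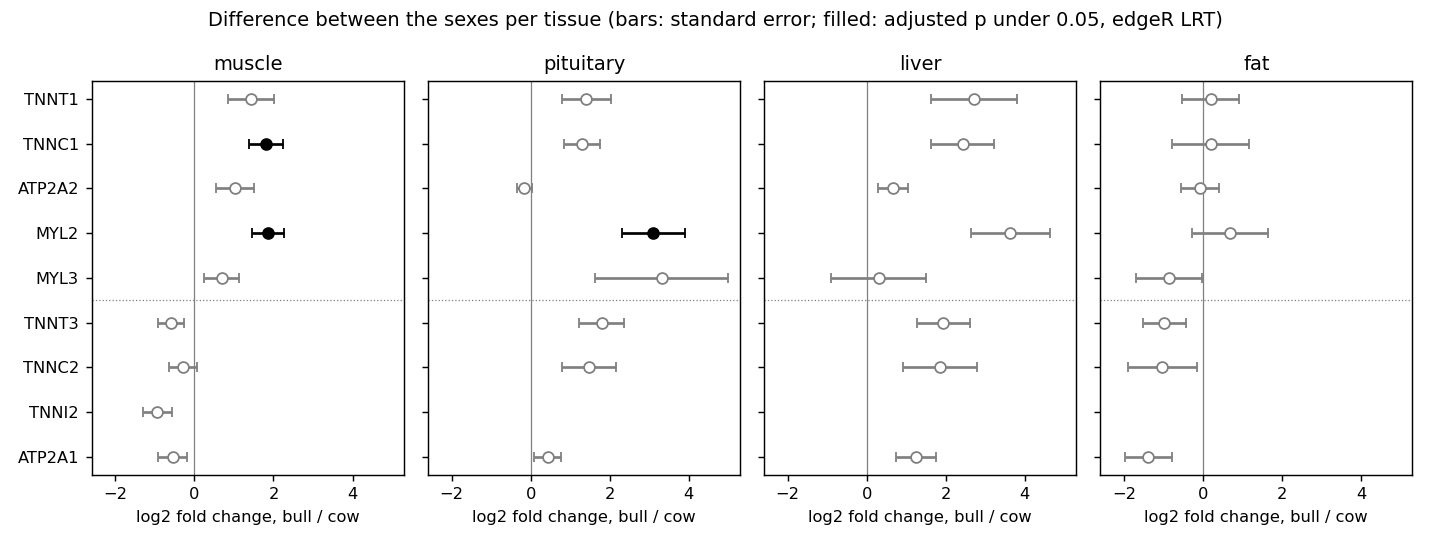
Log2 fold change between bulls and cows (x axis; bars are standard errors, 5 animals a sex) of the members in each tissue, with filled points for an adjusted p under 0.05 in edgeR's likelihood ratio test; TNNI2 is drawn in muscle only, since its reads outside muscle were 0 or 1. MYL2 (1.86) and TNNC1 (1.81) are filled in muscle and MYL2 (3.11) in pituitary, and the fast members lie below 0 in muscle and above 0 in pituitary and liver.

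With all 40 libraries in 1 model of sex and tissue, 2 of the 9 members were called, both higher in bulls, where 1.69% of all genes were called and 0.335% were called higher in bulls. MYL2 had a log2 fold change of 2.27 (SE 0.453, edgeR adjusted p = 0.00226; quasi-likelihood 0.0191, a test that called 0.586% of all genes) and was also called with the animal as a replicate block (adjusted p = 0.0214). TNNC1 had 1.40 (SE 0.356, adjusted p = 0.0222) and was not called with the quasi-likelihood test (adjusted p = 0.0642) or with the block (adjusted p = 0.0622). MYL2 remained called without any 1 animal. TNNC1 was lost without cow 1, 2 or 3 or bull 2 or 3. Both were called without the liver library labelled bull 3.

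The effect of sex was tested for a difference between tissues with the interaction of sex and tissue. TNNT3 was the only member called in the likelihood ratio test of edgeR (adjusted p = 0.0427), where 0.335% of all genes were called. Its log2 fold changes in the single tissues were -0.60 in muscle, -0.97 in fat, 1.94 in liver and 1.80 in pituitary. The call did not hold in the quasi-likelihood test (adjusted p = 0.364), which called 0% of all genes and left 3 members with an unadjusted p under 0.05, nor with the animal as a replicate block (adjusted p = 0.121), nor without any 1 animal other than cow 5 (adjusted p = 0.051 to 0.277; 0.000138 without cow 5). For MYL2 and TNNC1, which passed in muscle and not in fat or liver, the interaction was not called (adjusted p = 0.702 and 0.827), so a difference between tissues was not shown.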

How the data were processed

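Total RNA of 4 tissues from 5 cows and 5 bulls was sequenced after poly-A selection. The authors trimmed the reads with Trimmomatic, aligned them to bosTau7 with Bowtie2 and TopHat2 and counted uniquely aligned reads with HTSeq; they deposited raw read counts per gene symbol, without normalization. Reads shared by paralogs are therefore lost, and the counting mode and strandedness are not given in the sources used here. A row without a gene name (0.114% to 2.69% of gene reads) was left out.

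Sex within a tissue (M1) and over the 40 libraries with tissue (M2, interaction) was tested in edgeR 4.0.16 (R 4.3.3) with TMM factors, estimateDisp and the likelihood ratio test the study used, and the quasi-likelihood test beside it, on 13148 genes with at least 1 read; the prior count of fold changes was 0.125. Tissues were compared with the quasi-likelihood test. Printed CPM use TMM factors over all 40 libraries (0.518 to 1.71), and M1 uses factors within the tissue. Slow to fast ratios (1 read added) were tested with exact permutation tests over 252 assignments, and correlations with 100000 permutations in scipy 1.17.1. DESeq2 1.42.0, RLE factors, filterByExpr, leaving out libraries, and limma 3.58.1 voom with the animal as a block were alternatives; library sizes alone and leaving out the liver library labelled bull 3 were added after the data were seen. The animal pairs tissues, not sexes: the labels give each animal's tag in all 4 tissues, and the within-animal correlation was 0.104 (M2) and 0.112 (interaction). Tests were checked on simulated counts.

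The members and gene lists were chosen with earlier results of these data known. Named genes are the members, MYLPF and MYL1, the 3 genes most like each member, listed genes past the M1 threshold, and markers. The p-values by sex within a tissue measure the spread between the 5 animals of a sex. The main tests over the 40 libraries, the interaction included, and those between tissues took libraries of the same animal as independent. Only the alternatives with the animal as a block allowed for this pairing. The correlation p-values rest on the 10 muscle libraries of both sexes together. Nothing besides the animals was replicated. The planned adjustment of correlations over pairs and the TNNI1/TNNI2 ratio were not carried out.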

Additional observations from a re-analysis of the deposited data

Results flagged for a closer look

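Within the 5 libraries of a sex and tissue, a highest or lowest value was set apart where its gap to the next, divided by the range, was above Dixon's critical value of 0.71. This held for 14 of 77 groups, where chance alone gives about 1 in 20 for normally distributed values. That rate does not hold for groups of near-zero counts, such as MYL3 in the pituitary of cows and TNNI2 in the fat of cows, where 1 read stood against 0 reads. In muscle, TNNT1 was set apart in both sexes, by cow 4 (12286 CPM, the other cows 1414 to 3508) and by bull 1 (2450 CPM, the other bulls 11707 to 14583). In the liver of bull 2, TNNT1 (9.84 CPM), TNNC1 (9.49 CPM) and MYL2 (20.9 CPM) stood above the other 4 bulls, which had at most 1.61, 1.04 and 3.71 CPM. The skeletal marker sum of that library, 183 CPM, was the highest among the livers, and its part was not tested.

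Cow 5 was the highest cow in liver for TNNT1 (1.50 CPM), TNNC2 (2.60 CPM) and MYL2 (1.37 CPM), in pituitary for TNNT3 (4.24 CPM), TNNC2 (1.57 CPM) and MYL3 (0.0684 CPM, 1 read) and in fat for MYL2 (4.64 CPM). Its skeletal marker sums, 51.4, 42.8 and 156 CPM, were the highest of the 5 cows in those tissues. In the fat of cow 2, MYL3 (2.08 CPM, 32 reads) and TNNI2 (0.0650 CPM, 1 read) stood apart. The effect of sex on TNNT3 differed between the 4 tissues by the interaction test (edgeR likelihood ratio, adjusted p = 0.0427), with the exceptions named above.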

How the results depend on the processing

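The 9 members stayed higher in muscle than in the other 3 tissues in all alternatives run. The quasi-likelihood test gave 0 members called by sex in muscle, 0 in pituitary, 1 over the 40 libraries and 0 for the interaction. With filterByExpr, 0 were called in pituitary, where it left 5 of the 9 members to test and MYL2 was not among them; it left 3 in liver and 7 in fat. With the animal as a replicate block, 1 member was called over the 40 libraries, 0 for the interaction and 1 between pituitary and liver; it changed no other call. Library sizes alone, which move all log2 differences of fat over liver by 0.72 and of pituitary over liver by 0.84, gave 4 over the 40 libraries (TNNT1, TNNC1, TNNI2 and MYL2), 1 between pituitary and liver and 6 between fat and liver; the likelihood ratio test also gave 1 between pituitary and liver. Without TMM factors, 24 muscle correlations had a p under 0.05, against 15.

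Leaving out 1 library or animal at a time gave 0 to 3 members called in liver, 0 in fat, 1 to 4 in muscle, 0 to 4 in pituitary, 1 to 3 over the 40 libraries, 0 to 1 for the interaction, 0 to 1 between pituitary and liver, 2 to 4 between pituitary and fat and 2 to 5 between fat and liver. The log2 differences of the ratios were 1.99 to 2.91 for TNNT1/TNNT3, 1.83 to 2.52 for TNNC1/TNNC2, 1.60 to 2.25 for ATP2A2/ATP2A1, 1.53 to 2.25 for MYL2/MYLPF and 0.11 to 0.70 for MYL3/MYL1. Apart from muscle without cow 4, the calls over all genes in these fits are not given here. The cause of these changes was not tested. Outside muscle, most member levels rest on under 100 reads per library, which limits what can be seen there.

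No log2 difference of a member that passed the threshold changed direction. Of 99 differences by sex or tissue, 19 changed sign under at least 1 alternative, none of them called in the main test or under an alternative that changed its sign. Leaving out 1 library or animal, the differences by sex ran in fat from -0.093 to 0.76 for TNNT1 (main value 0.20), -0.27 to 0.98 for TNNC1 (0.19), -1.69 to 0.038 for TNNC2 (-1.03), -0.29 to 0.39 for ATP2A2 (-0.08) and -1.09 to 0.54 for MYL3 (-0.86), in liver from -0.80 to 1.25 for MYL3 (0.30), and over the 40 libraries from -0.26 to 0.10 for ATP2A1 (-0.08). Pituitary minus fat ran from -0.28 to 0.28 for TNNC1 (-0.12), -0.74 to 0.065 for TNNI2 (-0.65) and -0.15 to 0.24 for ATP2A1 (0.012). Fat minus liver ran from -0.18 to 1.22 for TNNC1 (0.31), -0.028 to 0.79 for TNNI2 (0.69) and -0.65 to 1.07 for MYL2 (-0.05). Pituitary minus liver ran from -0.0039 to 0.98 for TNNC1 (0.19) and -0.42 to 0.30 for MYL3 (-0.12), which was 0.059 without the liver library labelled bull 3.

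With library sizes alone, TNNC1 by sex in fat was -0.038, pituitary minus fat was 0.014 for TNNC1, fat minus liver was 0.63 for MYL2, and pituitary minus liver was 0.12 for TNNT3 (-0.74 with TMM factors), 0.33 for TNNC2 (-0.52), 0.26 for ATP2A2 (-0.64) and 0.65 for MYL3. With the replicate block, pituitary minus fat was 0.12 for TNNC1 and fat minus liver 0.24 for MYL2, and TNNT3 by sex over the 40 libraries was -0.020 (0.52 without it). MYL2 in fat minus liver was 0.12 with the likelihood ratio test, and ATP2A1 in pituitary minus fat was -0.0092 with filterByExpr.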

Other observations

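Ratios of slow to fast reads outside muscle rest on few reads and were not tested. For MYL2/MYLPF in fat they were 0.25 to 1.11 in cows and 1 to 4.75 in bulls (log2 difference 1.61, SE 0.464). In pituitary MYL2/MYLPF was 0.333 to 1 in cows and 0.639 to 2.06 in bulls. TNNT1/TNNT3 in fat was 0.0188 to 0.182 in cows and 0.0349 to 0.204 in bulls, and its muscle median was 0.118 in cows and 1.33 in bulls.

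MYH7, the slow heavy chain that shares fibres with MYL2 and TNNT1, stood higher in pituitary, at a median of 1176 ppm of the same animal's muscle level, than in liver (106 ppm) and fat (172 ppm). In pituitary it was 5.61 to 7.60 CPM in cows and 9.48 to 23.2 CPM in bulls, without overlap, while TNNT1 (0.236 to 2.39 and 1.11 to 3.98 CPM) and MYL2 did overlap. Of all genes, 0.852% had all 5 bulls above all 5 cows in pituitary. RYR1, the calcium release channel of skeletal muscle, stood at 1268 to 1667 ppm in the 3 tissues, and CASQ1, a calcium store protein, at 1661 ppm in fat.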
